A study of Mus musculus with 56 samples.

Results

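The metallothionein and zinc-handling genes measured in mouse blood were Mt1, Mt2, Mt3, Mt4, Mtf1, Slc30a1 and Slc39a14. They were found by gene name in the scanner files and make up 7 of the 30199 gene names on the array. All 7 passed the filter on dim probes that left 18876 genes for testing. The blood came from 56 C57BL/6 mice, about 10 to 12 weeks old, whose RNA was hybridised to one-color Agilent whole mouse genome arrays, 1 array per mouse. Of these, 28 mice had received 200 kBq of 85/90SrCl2 by tail vein injection and are called irradiated, and 28 were controls. Controls were given saline. Blood was drawn by cardiac puncture 4, 7, 9, 25 or 30 days later, from 4 mice per group at day 4 and 6 per group at the other days. 90Sr, a beta emitter, is a calcium mimic that lodges in bone and stays there, so irradiation went on for as long as the mice lived and a later day is also a larger absorbed dose; time and dose cannot be told apart.

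Metallothioneins are small cysteine-rich proteins that bind zinc and copper and can take up reactive oxygen species. Mt1 and Mt2 are made in most tissues, Mt3 is best known from brain and Mt4 from stratified epithelium. The transcription factor encoded by Mtf1 senses free zinc and switches on Mt1, Mt2 and Slc30a1 through metal response elements, short sequences in their promoters; glucocorticoids and inflammatory signals through Stat3 can raise Mt1 and Mt2 as well. Slc30a1 codes for the plasma membrane exporter of zinc, and Slc39a14 for an importer of zinc and iron that inflammation induces. In blood, metallothionein transcripts are known from leukocytes and from immature red cells.

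In the irradiated mice Mt2 rose at each of the 5 days, by 3.93-, 4.71-, 6.77-, 4.28- and 4.03-fold in the order of the days. Mt1 rose at days 7, 9, 25 and 30, between 2.96-fold and 4.30-fold. Mt3, Mt4, the zinc sensor gene Mtf1 and the transporter genes Slc30a1 and Slc39a14 were not called on any day by the brightest probe of each. A call meant an unadjusted p under 0.001 in limma together with a difference of 2-fold or more, and adjusted p-values are Benjamini-Hochberg values over the 18876 genes. By that rule 1 of the 7 genes was called higher at day 4 and 2 of 7 at each later day, and none was called lower on any day. Among all genes tested, 2.08%, 2.58%, 4.44%, 5.63% and 15.5% were called higher over the 5 days in order, and 17.2%, 12%, 13.6%, 19.7% and 16% lower. By the adjusted p alone, 2, 2, 3, 2 and 3 of the 7 were higher, against 20.3%, 24%, 15.5%, 25.9% and 34.4% of all genes, and 2, 3, 0, 2 and 1 lower, against 33.4%, 33.4%, 27.3%, 38.1% and 29.6% (limma, Benjamini-Hochberg p under 0.05). Mt2 was 1 of only 6 genes, or 0.0318% of those tested, called higher at all 5 days; the others were Crip2, Gng13, Nacad, Psrc1 and the transcript AK156771, while 6.26% were called lower at all 5. With 75th percentile scaling of each array 107 genes were called higher at all 5 days, Mt2 among them, and with spike-in scaling there were 0.

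**Figure D1:**
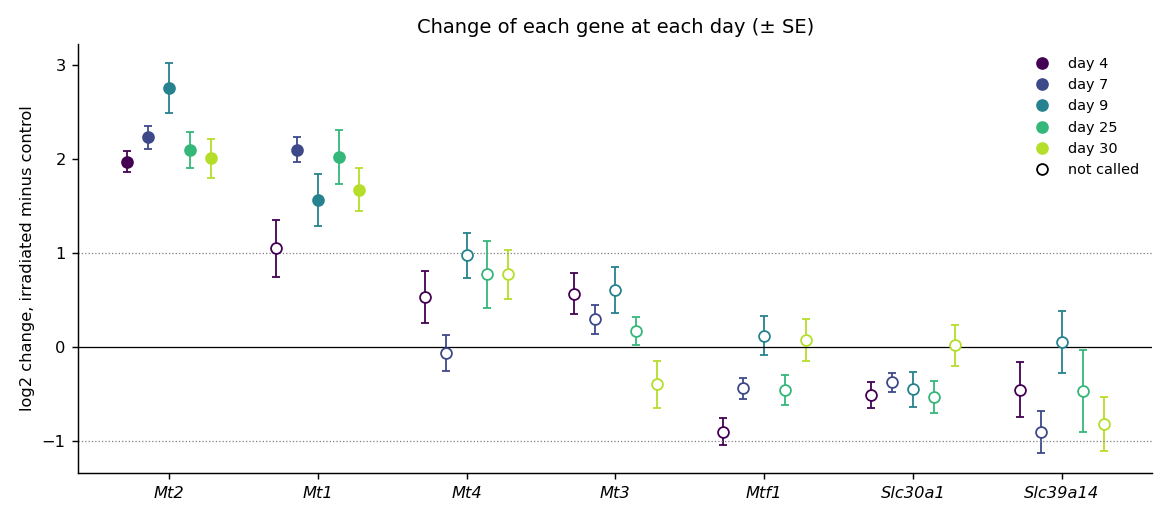
Log2 change (irradiated minus control, with its SE) of the 7 genes on each of the 5 days; filled points were called, open points were not, and dotted lines mark a 2-fold change. All 5 points of Mt2 and 4 of the 5 points of Mt1 are filled, and no other gene has a filled point.

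Values are log2 signal over the array median: the background-subtracted intensity of a probe on a log2 scale minus the median of the non-control spots of its array, so that 1 unit is a 2-fold difference. The median itself was lower in irradiated blood, by between 0.59 and 0.94 log2 units over the days, and the number of spots well above background ran from 17809 to 24698 in controls (median 21049) and from 14389 to 22524 in irradiated mice (median 17863). The direction of the bulk of calls therefore depended on the scaling: of all genes called at day 4, 89.2% were lower with median scaling and 29.8% with 75th percentile scaling, and at day 25 the shares were 77.7% and 20.1%. The median change of all genes, which lay between -0.10 and 0.12 with median scaling, lay between 0.31 and 0.48 with 75th percentile scaling and between -1.88 and -0.51 with spike-in scaling. In whole blood, fewer cells of a type and less RNA per cell cannot be told apart. On day 4 the 4 arrays of each group filled 1 slide, and that day's slide and treatment cannot be told apart. At each later day 1 slide held both groups, and most arrays lay on slides of their own group alone. At days 7 and 30 most irradiated arrays were also scanned on another day than the controls. Arrays of different days shared no slide and no scan day. A difference between days in control level therefore cannot be told apart from slide or scan day. With slide as a block, the slides of both groups carry the comparison. Genes called at days 7, 9, 25 and 30 then went from 2749, 3406, 4776 and 5950 to 1985, 1076, 129 and 327. Replicates were separate mice. Actb, the actin gene often used as a reference, changed by between -0.09 and 0.31 and was not called on any day.

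Mt4, Mt3, Mt2 and Mt1 lie next to each other on chromosome 8. The probes that stand for them covered chr8:96662155-96662693 for Mt4, chr8:96677927-96677986 for Mt3, chr8:96697371-96697430 for Mt2 and chr8:96704165-96704224 for Mt1 in the mm9 build of the array files. The probes of Slc30a1, Mtf1 and Slc39a14 lay at chr1:193736760-193736819, chr4:124526365-124526424 and chr14:70703394-70703453. No exon or intron was assigned to them, since an mm9 annotation was not used here. Mt1, Mt2 and Slc30a1 are all described targets of Mtf1, and the first 2 of them were called higher while Slc30a1 was not, so the 250 bases before their RefSeq transcription starts are shown. Sequences are from RefSeq on GRCm38.p6, plus strand, at chr8:94178839-94179088 for Mt1, chr8:94172368-94172617 for Mt2 and chr1:191906531-191906780 for Slc30a1. Capitals mark the core of the metal response element, searched as TGCACNC or TGCGCNC on both strands.
Mt1: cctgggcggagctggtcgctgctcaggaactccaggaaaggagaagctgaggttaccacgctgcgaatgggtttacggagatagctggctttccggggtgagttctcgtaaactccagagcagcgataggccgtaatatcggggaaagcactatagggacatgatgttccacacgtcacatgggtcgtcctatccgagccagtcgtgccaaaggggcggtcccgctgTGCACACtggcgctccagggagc
Mt2: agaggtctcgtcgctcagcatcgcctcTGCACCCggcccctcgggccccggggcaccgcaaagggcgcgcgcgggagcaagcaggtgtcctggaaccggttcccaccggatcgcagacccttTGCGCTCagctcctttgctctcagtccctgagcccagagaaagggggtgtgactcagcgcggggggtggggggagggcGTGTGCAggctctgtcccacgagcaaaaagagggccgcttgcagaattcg
Slc30a1: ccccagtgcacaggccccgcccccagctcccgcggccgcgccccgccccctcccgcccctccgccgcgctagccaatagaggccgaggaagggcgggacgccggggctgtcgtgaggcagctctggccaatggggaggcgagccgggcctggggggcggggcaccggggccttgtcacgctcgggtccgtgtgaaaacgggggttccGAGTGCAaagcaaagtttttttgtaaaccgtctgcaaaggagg
The Mt2 window held 3 matches, 223, 128 and 50 bases before the start, and the Mt1 and Slc30a1 windows held 1 each, at 23 and 43 bases. Of all 32851 promoter windows of this length, 21.4% held at least 1 match and 1.26% at least 3. Mt4 also had 1 match, and the windows of Mt3 and Mtf1 had none. The core of the antioxidant response element, searched as TGACNNNGC on both strands, was in the windows of Mt2 and Slc30a1 and in 10.2% of all windows. A promoter window was at hand for 6 of the 7 genes, not for Slc39a14. Matches of the 2 motifs did not overlap. Bases past the RefSeq start or farther upstream were not searched, so the counts are those of these windows, not of whole promoters. A match is a description of these letters and no measure of binding.

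Mt2 separated the groups completely. At day 4 the control mice had log2 signals of 1.72, 1.73, 1.74 and 1.77, and the irradiated mice 3.63, 3.64, 3.68 and 3.89. At day 7 controls ran from 1.53 to 1.98 with a median of 1.78, and irradiated mice from 3.62 to 4.2 with a median of 4.03. At day 9 the ranges were 1.17 to 1.74 (median 1.59) and 3.05 to 4.76 (median 4.48). The irradiated mice thus lay above every control of their day, with a gap between the ranges of more than the controls' whole range. At day 25 the controls ran from 1.37 to 2.25 (median 1.83) and the irradiated mice from 3.38 to 4.40 (median 3.92), and at day 30 from 1.07 to 1.90 (median 1.40) and from 3.003 to 3.93 (median 3.41). Not 1 of the 28 irradiated mice fell within the control range of its day. The share of all genes whose groups did not overlap was not counted, here or for the genes below.

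The log2 changes of Mt2 were 1.97 ± 0.11 on day 4 (SE, n = 4 per group; limma adjusted p = 0.000142) and 2.24 ± 0.12, 2.76 ± 0.26, 2.10 ± 0.19 and 2.01 ± 0.21 on the later days in order (n = 6 per group; limma adjusted p = 1.84e-06, 1.42e-05, 6.37e-05 and 2.65e-05). The largest, at day 9, came with the widest spread among irradiated mice, because 1 mouse at 3.05 sat apart from the other 5 at 4.40 to 4.76. Whether the change itself differed between days was tested with an interaction term in limma over all 10 groups, and did not pass for Mt2 (adjusted p = 0.119), where 22.6% of all genes did; with 75th percentile scaling the adjusted p was 0.0357 and with quantile normalization 0.0199. Control levels of Mt2 did not pass a test for a difference between days either (limma adjusted p = 0.256), while 55.9% of all genes did. On the 4 slides that held 2 mice of each group, at days 7, 9, 25 and 30, both irradiated mice were above both controls, by 2.06, 2.18, 1.92 and 1.72. Under 5 other scalings Mt2 stayed above 0 on every day; it was called at all 5 days under 4 of them and at 4 days with spike-in scaling, which left 0.35 at day 7. Background correction by normexp gave 0.27, 0.72, 1.30, 0.95 and 0.82, of which day 9 was called. After it the log2 SD of an array varied from 1.09 to 2.27 in place of 2.91 to 3.19. Of all 18876 genes normexp left 0, 12, 86, 1 and 597 called over the days in order.

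Mt1, a close paralog of Mt2, moved the same way with more variable controls; whether a probe of one also bound the transcript of the other was not tested. The day 4 controls of Mt1 lay at 3.11, 3.34, 4.01 and 4.53 and its irradiated mice at 4.51, 4.72, 4.74 and 5.22, so that the groups overlapped by 1 control mouse. At day 7 the controls spanned 2.38 to 3.09 and the irradiated mice 4.74 to 5.06, and at day 25 the spans were 1.82 to 3.68 and 4.02 to 5.19. All 24 irradiated mice of days 7 to 30 were above every control of their day. The smallest of these gaps was at day 25.

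Mt1 changed by 1.05 ± 0.31 at day 4 (SE, n = 4 per group; limma adjusted p = 0.0173), which passed the adjusted threshold and 2-fold but not the p of a call. Leaving out the control mouse at 4.53 made it 1.31, and a call; so did scaling on the 75th percentile (1.53), while normexp gave -0.35. The later changes were 2.10 ± 0.13, 1.57 ± 0.28, 2.03 ± 0.28 and 1.68 ± 0.22 at days 7, 9, 25 and 30 (n = 6 per group; limma adjusted p = 3.67e-06, 0.000532, 0.000156 and 7.98e-05). The control levels of Mt1 differed between days (limma adjusted p = 0.000499), as did those of 55.9% of all genes. Control means were 3.75 ± 0.65 and 3.73 ± 0.63 at days 4 and 9 against 2.79 ± 0.26 and 2.67 ± 0.64 at days 7 and 25 (SD). Arrays of different days lay on different slides, so day and slide cannot be told apart here. The change itself was not shown to differ between days (limma interaction, adjusted p = 0.19). On the 4 slides with both groups Mt1 was higher in both irradiated mice than in both controls, by 2.01, 2.34, 1.33 and 1.23 at days 7, 9, 25 and 30; with slide as a block the day 25 and day 30 changes, 1.33 and 1.23, were no longer called. With spike-in scaling Mt1 was called at day 25 alone and was 0.22, 0.48 and 1.05 at days 7, 9 and 30; with normexp it was called at days 25 and 30 and was 0.89 and 1.09 at days 7 and 9.

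**Figure D2:**
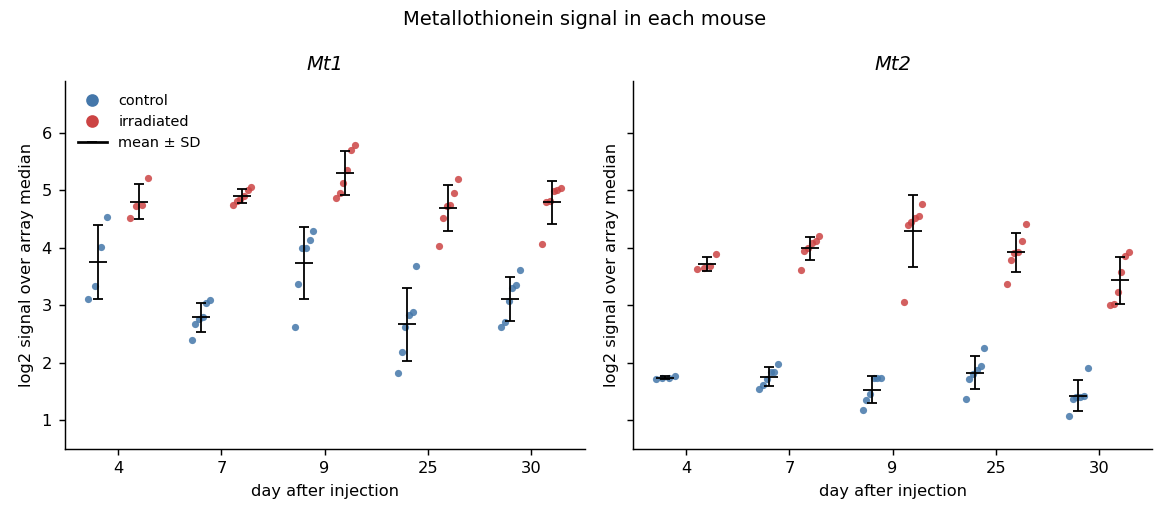
Log2 signal over the array median of Mt1 and Mt2 in each mouse by day, controls in blue and irradiated mice in red, with the mean and SD of each group (n = 4 at day 4, 6 at other days). Every red Mt2 point lies above every blue point of its day, and the only overlap for Mt1 is at day 4, where 1 control reached 4.53.

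The array had a second probe for Mt1, designed on the transcript AK154954 at chr8:96703844-96703903 and well above background on 41 of the 56 arrays, and it gave another picture. Its changes were 0.06, 0.50, 1.11, 0.37 and 0.55 in the order of the days, and none was called (limma, all probes past the filter). Of these, the change at day 9 passed adjustment (adjusted p = 0.0369). The values given above are those of the brighter probe, designed on the RefSeq transcript NM_013602. Whether the probes read the same transcript was not tested.

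Within an array the scaling cancels, so the change of Mt2 was also set against that of the other genes (two-sided exact permutation test, adjusted over the 20 comparisons of Mt2 with Mt1, Mtf1, Slc30a1 and Slc39a14; the smallest unadjusted p is 0.0286 at day 4 and 0.00216 later). Mt2 rose more than Mtf1 at every day, by between 1.93 and 2.87 log2 units, and more than Slc30a1, by between 1.99 and 3.21, with each irradiated mouse above every control. The exact permutation test gave adjusted p = 0.0357 for both at day 4 and 0.00394 at the later days. No size is given against Slc39a14, which was near background on most arrays. Against Mt1 the difference was 0.92 at day 4 and 1.19 at day 9, with exact permutation adjusted p = 0.0357 and 0.0382; without any 1 of 9 of the 12 mice the day 9 difference, then 1.04 to 1.22, no longer passed, nor did the day 4 difference, then 0.83 to 1.001, without any 1 of the 4 irradiated mice. With normexp these differences, at days 4 and 9, were 0.62 and 0.22 and did not pass. At days 7, 25 and 30 it was 0.13, 0.07 and 0.33 and did not pass (exact permutation adjusted p = 0.287, 0.716 and 0.2). With the mean of both Mt1 probes in place of the brighter one, Mt2 rose more than Mt1 at these 3 days as well, by 0.93, 0.90 and 0.89, whereas with normexp the differences turned to -0.17, -0.57 and -0.70.

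The remaining metallothioneins, Mt3 and Mt4, were not called on any day, and each was well above background in all 56 mice. Control means of the Mt3 probe, 4.03 to 5.44 over the days, were above those of Mt1 (2.67 to 3.75) and Mt2 (1.43 to 1.82). Whether the probes of Mt3 and Mt4 also bound other transcripts was not tested. Mt3 overlapped between the groups on each day. At day 9 its controls lay within 3.84 and 4.14 and its irradiated mice within 3.75 and 5.64, with 5 of the 6 above all controls and 1 below. Its changes were 0.57, 0.30, 0.61, 0.18 and -0.39 in the order of the days, with limma adjusted p between 0.0509 and 0.303; with spike-in scaling they were below 0 on all 5 days, and with 75th percentile scaling Mt3 was called higher at days 4 and 9. The effect on Mt3 differed between days (limma interaction, adjusted p = 0.0426). Its control levels differed too (limma adjusted p = 8.78e-06), as did those of 55.9% of all genes. They were lowest at day 9, at 4.03 ± 0.10, and highest at day 30, at 5.44 ± 0.43 (SD, n = 6).

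Mt4 came closest to a call among the other genes. Its controls at day 9 ranged from 1.33 to 2.38 and its irradiated mice from 2.41 to 3.62, so the ranges lay close but did not overlap. The change was 0.98 ± 0.24 (SE, n = 6 per group; limma adjusted p = 0.00411), or 1.97-fold, just under the fold of a call, and with 75th percentile scaling it was 1.37 and called. It was also called without control replicate 5 (1.103) or irradiated replicate 6 (1.05) of that day. At day 30 it was 0.78 ± 0.26 (adjusted p = 0.0163 in limma), with 4 of 6 irradiated mice above all controls. At days 4, 7 and 25 the change was 0.53, -0.06 and 0.78 and did not pass adjustment. With spike-in scaling Mt4 was below 0 on 3 of the 5 days. Set against Mt3 and Mt4 on the same array, a comparison chosen after these values were seen, Mt2 rose more at each day, by between 1.40 and 2.40 over Mt3 and between 1.23 and 2.30 over Mt4 (two-sided exact permutation test, adjusted p at most 0.0357 over 20 comparisons).

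Mtf1, the zinc sensor gene, was not higher on any day by its brightest probe, and was lower on 3 with median scaling, of which day 25 turned to 0.03 with 75th percentile scaling. At day 4 the controls had 1.53, 1.61, 1.72 and 1.91 and the irradiated mice 0.58, 0.69, 0.90 and 1.01, without overlap. The change was -0.90 ± 0.14 there, -0.44 ± 0.11 at day 7 and -0.46 ± 0.16 at day 25 (SE; limma adjusted p = 0.000955, 0.00561 and 0.0227), and 0.12 and 0.08 at days 9 and 30, with adjusted p = 0.673 and 0.765 in limma. The effect on Mtf1 differed between days (limma interaction, adjusted p = 0.00843). All 3 lower values were under 2-fold. With 75th percentile scaling the changes ran from -0.42 to 0.52 over the 5 days. A second Mtf1 probe, well above background on 16 arrays, gave -1.21, -1.45, -0.11, -1.16 and -0.79, of which day 25 was called. The last of 3 probes was flagged as dim on 55 of 56 arrays and was not used.

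Slc30a1, the zinc exporter gene, was lower at days 4, 7 and 25 by less than 2-fold with median scaling, while with 75th percentile scaling its changes over the 5 days ran from -0.05 to 0.21. At day 7 its controls ran from 2.44 to 2.79 and its irradiated mice from 2.13 to 2.32, with no overlap, and at day 4 all 4 irradiated mice, at 1.62 to 1.87, were below the controls, at 2.02 to 2.46. Changes at days 4, 7, 9 and 25 were -0.50 ± 0.14, -0.37 ± 0.10, -0.45 ± 0.18 and -0.53 ± 0.17 (SE; limma adjusted p = 0.0126, 0.00666, 0.0592 and 0.0165), and at day 30 the change was 0.02 ± 0.22. The difference from Mt2 on the same array, given above, does not involve the scaling. The control levels of Slc30a1 also differed between days (limma adjusted p = 0.000208), as did those of 55.9% of all genes.

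Slc39a14, the importer, was near the limit of detection, well above background on 10 of the 56 arrays, 9 of them controls. None of the irradiated arrays of days 4, 7, 9 and 30 was among them, so no fold is given. Its measured changes were -0.45, -0.90, 0.05, -0.47 and -0.81, of which days 7 and 30 passed adjustment (limma adjusted p = 0.00448 and 0.0215); with 75th percentile scaling the changes ran from -0.63 to 0.45. At day 7, 5 of 6 irradiated mice were below all controls.

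**Figure D3:**
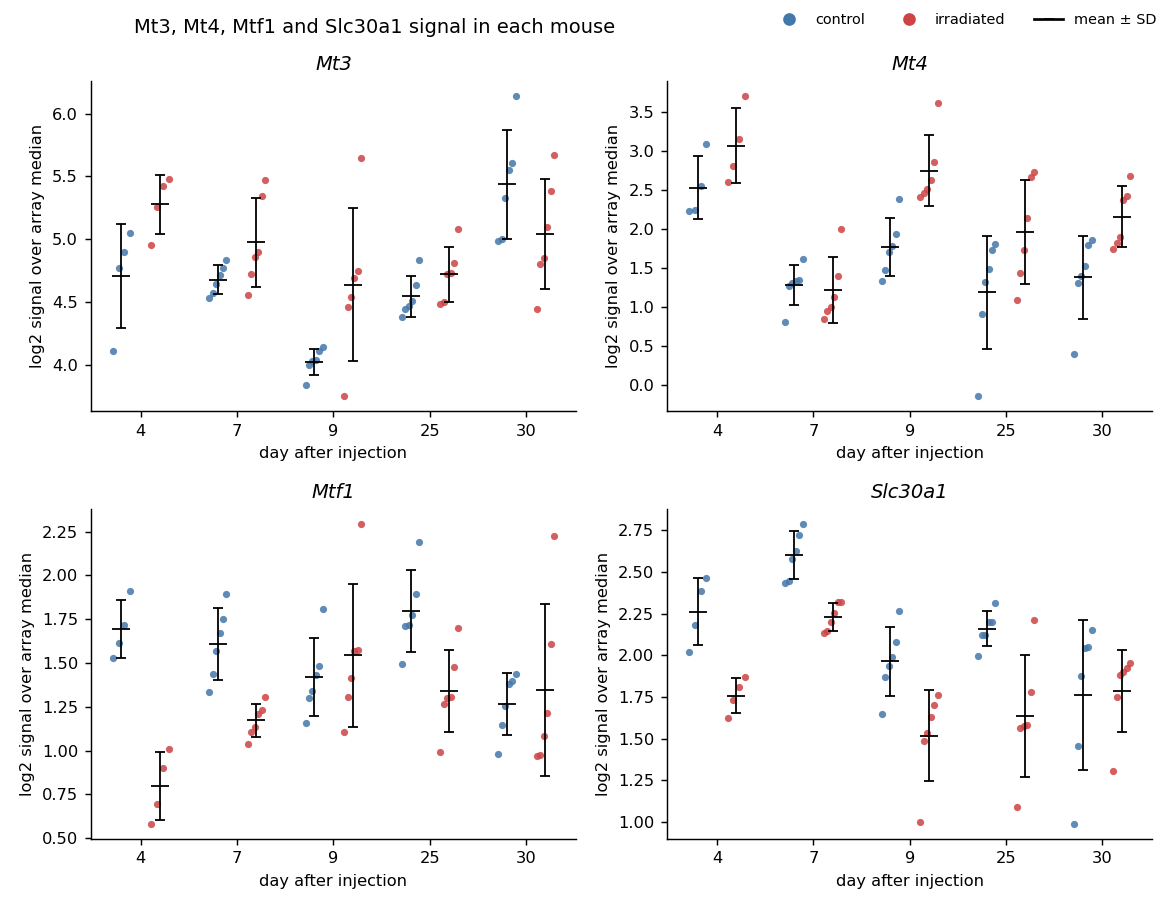
Log2 signal over the array median of Mt3, Mt4, Mtf1 and Slc30a1 in each mouse by day, controls in blue and irradiated mice in red, with the mean and SD of each group (n = 4 at day 4, 6 at other days; the vertical axes differ). The groups do not overlap for Mt4 at day 9, or for Mtf1 and Slc30a1 at days 4 and 7, and Mt3 overlaps on every day. The share of all genes without overlap was not counted.

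From mouse to mouse within a group, Mt2 was not shown to go with any of the other 6 genes. Deviations from the group mean were correlated in the 28 controls and the 28 irradiated mice apart, 12 relations in all, with a permutation test within days. By Pearson's r the closest were Mtf1 and Slc30a1 in controls, with Pearson's r of 0.496 and 0.465 and Spearman's rho of 0.458 and 0.312; by rho Mt1 in controls came before Slc30a1. Their adjusted permutation p was 0.174 for both by r, and 0.272 and 0.454 by rho; without the 2 mice farthest from the median of Mt2, r was 0.599 and 0.438. For Mt1, r was 0.322 in controls and 0.132 in irradiated mice, rho 0.391 and 0.273, and neither passed (permutation, adjusted p = 0.337 and 0.732 by r, 0.272 and 0.475 by rho). Without the 2 farthest mice they were 0.251 and 0.361. Mice of 1 group share slides, and slides held too few mice for a value within each.

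Over the 10 group means, the genes whose pattern was most like that of Mt2 were Crip2, which codes for a LIM domain protein (Pearson's r = 0.986), Hyal3, a hyaluronidase gene (0.983), Pdcd4, a translation inhibitor gene (0.977), Oit1 (0.975) and AK156771 (0.975). Of these, Crip2 and AK156771 were called higher at all 5 days and Hyal3 at 2. Mt1 had r = 0.911 and ranked 302 among all genes tested. Over the deviations of the 56 arrays from their group means the list was another: Rhoa, a small GTPase gene, had r = 0.833, followed by AK135063, Tprkb, Senp2 and Clcn3 at between 0.730 and 0.759, none of them called higher on any day, while Mt1 had r = 0.197. These are descriptions with no test, and all genes of an array share its scaling.

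Neighbouring genes on chromosome 8, taken in RefSeq order on GRCm38.p6 after the values above were seen, were not called higher apart from Ogfod1 at day 30. Values are with median scaling. Nup93, a nuclear pore gene next to Mt1, was called lower at days 4, 9, 25 and 30, with changes between -0.92 and -1.81 over the 5 days. Herpud1, an endoplasmic reticulum stress gene, was called lower at days 7, 9, 25 and 30, and Nudt21, which codes for a subunit of a polyadenylation factor, at days 7, 25 and 30. Slc12a3, between Nup93 and Herpud1, was not called on any day. Ogfod1, on the Mt4 side as Nudt21 is, changed by 2.79 at day 30. Bbs2, between Ogfod1 and Mt4, did not pass the filter on dim probes.

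Among the other zinc transporters 4 genes, Slc30a4, Slc30a5, Slc39a7 and Slc39a13, were called lower at all 5 days, as 6.26% of all genes were, and the rest were called at 2 days at most. Of 9 zinc exporters besides Slc30a1, 5 passed the filter on dim probes, and 2, 2, 3, 3 and 2 of the 5 were called lower over the days in order, against 17.2%, 12%, 13.6%, 19.7% and 16% of all genes, while none was called higher. With 75th percentile scaling 2, 1, 2, 2 and 2 were called lower, against 5.83%, 3.46%, 4.69%, 5.43% and 12% of all genes, and 1 was called higher, at day 4. Slc30a4 and Slc30a5, exporters into endosomes and the secretory pathway, were called lower at all 5 days, by between 1.52 and 2.47 and between 1.31 and 1.97 log2 units in size. Each irradiated mouse was below all controls of its day for both genes. Slc30a4 was well above background on every control array but on only 9 of the 28 irradiated arrays. With each of 5 other scalings Slc30a4 was called lower at all 5 days, and Slc30a5 at 3 or more.

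Of 13 zinc importers besides Slc39a14, 10 passed the filter. Over the days in order 2, 2, 3, 3 and 2 of the 10 were called lower, against 17.2%, 12%, 13.6%, 19.7% and 16% of all genes. Called higher were 0, 1, 1, 0 and 0, against 2.08%, 2.58%, 4.44%, 5.63% and 15.5% of all genes. With 75th percentile scaling 0, 0, 1, 0 and 2 were called lower and 0, 1, 1, 2 and 1 higher, and the list median, between -0.43 and 0.10 with median scaling, was between 0.05 and 0.29. Slc39a7, which releases zinc from the endoplasmic reticulum, changed by between -1.09 and -1.33, and Slc39a13, which does so from the Golgi, by between -1.24 and -2.12, and both were called lower at all 5 days. Both stayed below 0 on every day with each of the 5 other scalings, but with 75th percentile scaling Slc39a7 was called at 1 day and Slc39a13 at 2. The only importers called higher with median scaling were Slc39a5 at day 7 and Slc39a12 at day 9. None of that day's arrays had Slc39a12 well above background, and Slc39a5 was so on 1 of 6 control arrays at day 7.

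**Figure D4:**
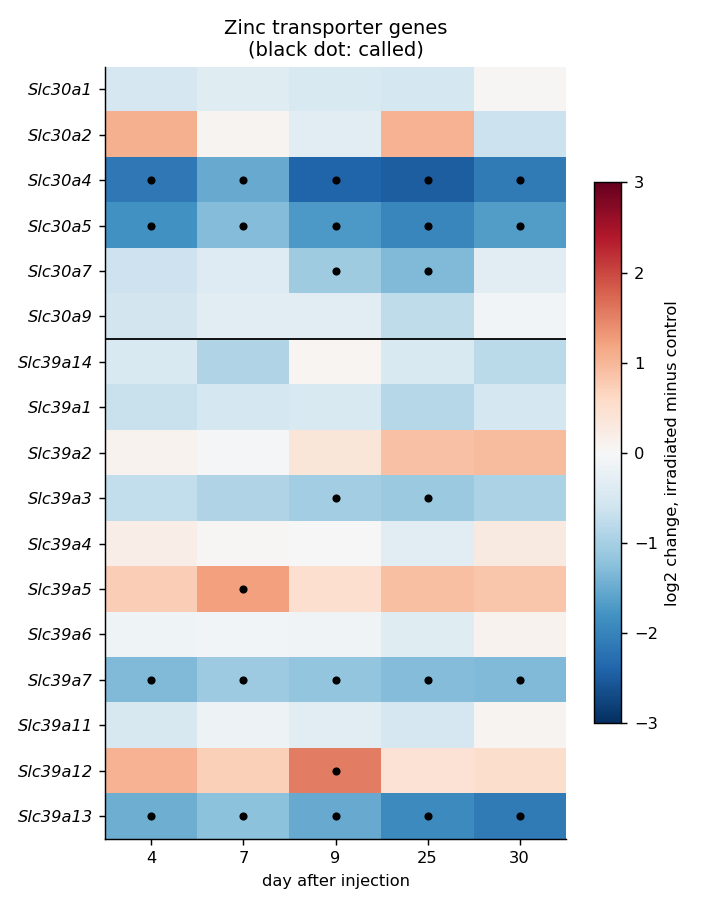
Log2 change (irradiated minus control, color scale) of the zinc exporter genes (Slc30a, above the line) and importer genes (Slc39a, below it) that passed the filter, by day; a black dot marks a call. Slc30a4, Slc30a5, Slc39a7 and Slc39a13 are called lower at all 5 days, and Slc30a1 and Slc39a14 have no dot.

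Gclc, Ndrg1, Csrp1, Sepw1, Pgf and Cebpa, the 6 other described targets of Mtf1 that were listed, were all tested and none was called on any day, with list medians between -0.11 and 0.55. With 75th percentile scaling 1 of the 6 was called higher at each of days 4, 9 and 30, and with spike-in scaling all 6 were called lower at day 7, as 75.2% of all genes were. Of 11 copper genes tested, 2, 2, 1, 1 and 5 were called higher over the days in order and 1 lower, at day 30. Among all genes the shares called higher were 2.08%, 2.58%, 4.44%, 5.63% and 15.5%. Slc31a2, a low-affinity copper transporter gene, was called higher at days 4, 7 and 30, by 1.04, 1.01 and 2.08, and Sco1, a mitochondrial copper chaperone gene, at the same days, by 2.03, 1.105 and 1.18. With spike-in scaling Sco1 was called on no day and Slc31a2 on 1. At day 9 both were near 0, at -0.16 and -0.09. Most of the 14 iron genes tested were above 0, between 8 and 10 on each day. Their list medians lay between 0.29 and 0.94, against -0.10 to 0.12 for all genes. Of the 14, 0, 0, 1, 0 and 6 were called higher and 4, 1, 2, 3 and 1 lower, the latter against 17.2%, 12%, 13.6%, 19.7% and 16% of all genes. With 75th percentile scaling 3, 2, 5, 7 and 8 were called higher, against 13.8%, 10.8%, 12.4%, 21.5% and 20.5% of all genes, and 1, 0, 1, 0 and 0 lower. With spike-in scaling the iron medians lay below 0 at days 4 to 25. Among the iron genes Hfe, a regulator of hepcidin, was called lower at all 5 days and Trf, transferrin, at 3, and with 75th percentile scaling each was called at 1 day.

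Genes of other routes that can raise Mt1 and Mt2 were counted too, and their direction depended on the scaling. Of all genes, 2.08%, 2.58%, 4.44%, 5.63% and 15.5% were called higher over the days in order with median scaling and 13.8%, 10.8%, 12.4%, 21.5% and 20.5% with 75th percentile scaling. Of 12 Nrf2 target genes tested, 0, 0, 1, 0 and 4 were called higher with median scaling and 3, 2, 3, 3 and 4 with 75th percentile scaling. Gstm1, a glutathione transferase of that list, was called lower at all 5 days, between -1.09 and -1.61, and with 75th percentile scaling at 1. Of 14 glucocorticoid-responsive genes, 0, 1, 0, 2 and 2 were called higher with median scaling and 1, 2, 2, 2 and 3 with 75th percentile scaling, and 2, 0, 2, 2 and 0 against 1, 0, 0, 0 and 0 were called lower. Among all genes the shares called lower were 17.2%, 12%, 13.6%, 19.7% and 16% with median scaling. With 75th percentile scaling these shares were 5.83%, 3.46%, 4.69%, 5.43% and 12%. The glucocorticoid medians lay between -0.24 and 0.15 with median scaling and between 0.10 and 0.63 with 75th percentile scaling.

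Of 10 Stat3 target and acute phase genes, 5, 1, 1, 1 and 3 were called lower over the days in order with median scaling, against 17.2%, 12%, 13.6%, 19.7% and 16% of all genes, and 1 higher, at day 30. Scaling on the 75th percentile left 1, 1, 0, 0 and 2 called lower, against 5.83%, 3.46%, 4.69%, 5.43% and 12% of all genes. It gave 1 and 2 called higher at days 25 and 30, against 21.5% and 20.5% of all genes. Bcl3, a co-regulator of NF-kB, was called lower at 4 days and Il6ra, the interleukin 6 receptor gene, at 3; with 75th percentile scaling these were 3 days and 1.

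Blood cell markers moved with irradiation beside Mt1 and Mt2. All 15 erythroid markers were measured, with 14 or 15 above 0 on each day and list medians of 0.64, 0.62, 1.11, 0.61 and 1.20; at days 9 and 30, 8 and 9 of the 15 were called higher, at day 7 only 1, and at days 4 and 25 none. Scaled on the 75th percentile, 10, 5, 14, 11 and 12 were called higher, and with spike-in scaling none. Among all genes the shares called higher were 2.08%, 2.58%, 4.44%, 5.63% and 15.5% with median scaling. They were 13.8%, 10.8%, 12.4%, 21.5% and 20.5% with 75th percentile scaling. Ahsp, the alpha globin chaperone gene, was called higher at days 7, 9 and 30. The summed erythroid signal, in multiples of the array median, was 95275 to 114192 in day 4 controls against 145099 to 183311 in irradiated mice, and 86796 to 162232 against 178167 to 248619 at day 30. It overlapped between the groups at day 9 alone. As a linear sum it rests mainly on Hba-a1, Alas2, Hbb-b1 and Hbb-b2, with median log2 signals of 15.3, 15.1, 15.1 and 14.2. The other markers were at 11.8 or less. Globin transcripts had been reduced in the RNA before labelling, and what was left of them enters the sum. With spike-in scaling the erythroid median was 0.02, -1.26, 0.02, -0.11 and 0.57. B cell markers fell: between 7 and 8 of the 10 were called lower on each day, among them Cd79b, Blk and Ebf1 at all 5 days, and none higher; with 75th percentile scaling 7, 6, 7, 8 and 8 were called lower and 1 higher, at day 25. Of the 10 monocyte markers, between 4 and 6 were called lower on each day, with Ccr2, Cx3cr1 and Ms4a6c at all 5; with 75th percentile scaling the counts were 4, 4, 5, 0 and 4 and each of these 3 genes was called at 4 days. Platelet markers were not called on any day with median scaling, while with 75th percentile scaling 2 of 9 were called higher at day 30, and 0 to 2 of 14 neutrophil markers were called lower and none higher. Of 11 T cell markers 1, 0, 0, 1 and 1 were called lower and 1 higher, at day 30, and no natural killer cell marker was called, with median scaling. Among all genes the shares called lower were 17.2%, 12%, 13.6%, 19.7% and 16% with median scaling. They were 5.83%, 3.46%, 4.69%, 5.43% and 12% with 75th percentile scaling.

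The rise of Mt2 was larger than that of the erythroid list on the same arrays through day 25. Over the median of the 15 erythroid markers, Mt2 rose by 1.34, 1.79, 1.502 and 1.70 at days 4, 7, 9 and 25, with every irradiated mouse above all controls (two-sided exact permutation test, adjusted p = 0.0357 at day 4 and 0.00433 at days 7 to 25; comparison chosen after the markers were seen to move). At day 30 the difference was 0.46, with 4 of 6 irradiated mice above all controls (exact permutation adjusted p = 0.0637). For Mt1 it was 1.66 and 1.63 at days 7 and 25 (exact permutation adjusted p = 0.00433), and 0.42, 0.31 and 0.13 at days 4, 9 and 30, which did not pass (exact permutation adjusted p = 0.222, 0.424 and 0.491). The part of a change in blood cell makeup in the rise of Mt1 and Mt2 was not tested beyond these values.

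**Figure D5:**
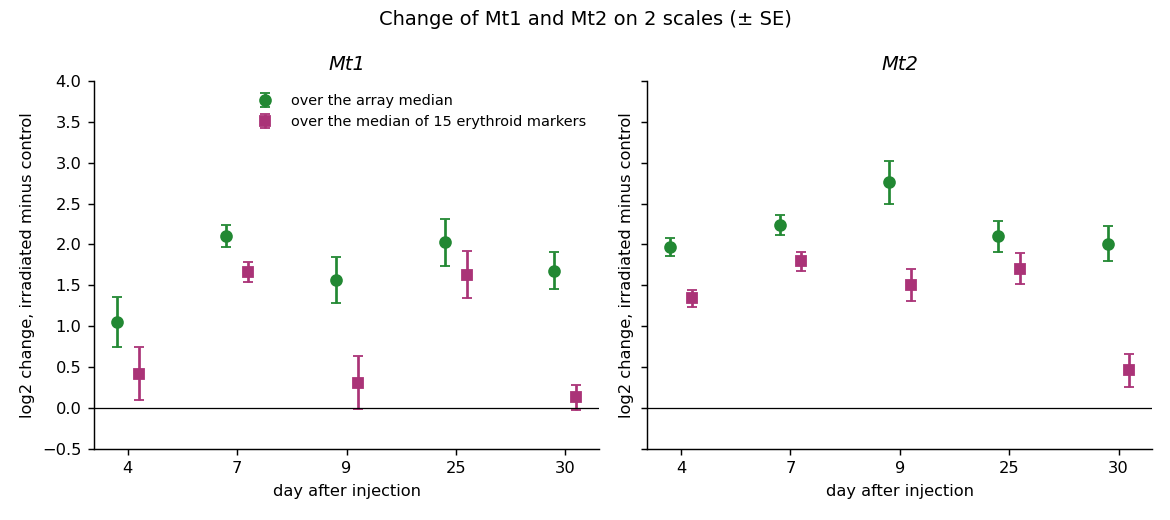
Log2 change (irradiated minus control, with its SE) of Mt1 and Mt2 by day, over the array median (circles) and over the median of the 15 erythroid markers of the same array (squares). For Mt2 the squares lie between 1.34 and 1.79 at days 4 to 25 and at 0.46 at day 30; for Mt1 they are at 1.66 and 1.63 at days 7 and 25 and at or below 0.42 on the other days.

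Markers of liver and heart were looked at too, since the liver is rich in metallothionein and the blood was drawn from the heart. Of the 7 liver markers, Alb was well above background on 1 of the 56 arrays and Apoa1 and Ttr on none, while Apoa2 was so on all 56. The summed liver signal overlapped between the groups at days 7, 9, 25 and 30 and was 289 to 353 multiples of the array median in day 4 controls against 381 to 434 in irradiated mice. Nearly all of this sum is Apoa2, whose median log2 signal was 8.27, against 1.405 or less for the other liver markers. Of the 7 heart markers, Actc1 was well above background on 2 arrays and Myl7 on none, while Myh6 was so on 42 and Myl2 on 43. Tnnt2 was so on 9 arrays, Tnni3 on 24 and Nppa on 25. The summed heart signal was 4.63 to 7.50 in day 4 controls and 8.73 to 12.9 in irradiated mice, did not overlap at days 7 and 9 either, and overlapped at days 25 and 30. Of the 5 heart markers tested, 0, 1, 1, 0 and 1 were called higher with median scaling, 2, 4, 4, 1 and 1 were higher by the adjusted p of limma, and the list median was 0.72, 1.23, 1.36, 0.49 and 0.13. The calls were those of Tnnt2 at 2 days and Nppa at 1, both near background on most arrays. By the adjusted p, 20.3%, 24%, 15.5%, 25.9% and 34.4% of all genes were higher. By 75th percentile scaling 2, 2, 4, 1 and 1 were called higher, and with spike-in scaling none, with medians between -0.66 and 0.27. The part of these markers in the rise of Mt1 and Mt2 was not tested.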

How the data were processed

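RNA from the blood of 56 mice was hybridised to one-color Agilent arrays, 1 per mouse, on 14 slides of 4 arrays. The deposited scanner files hold background-subtracted intensity values that Feature Extraction made (version 11.5.1.1 in the file header), with probe positions on mm9. The authors also deposited a table of log2 values, background-corrected, filtered and median normalized in BRB-ArrayTools, which served as an alternative. From the scanner files, log2 intensity minus the median of the 43020 non-control spots of an array was taken. Deposited flags of each spot, a score of 0 or 1, removed probes flagged on 25% of arrays or more, which left 23419 probes; the brightest probe stood for a gene, leaving 18876 genes. The number of arrays limits the precision.

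Groups came from the labels. Irradiated and control mice were compared at each day in limma 3.58.1 (R 4.3.3), each day fitted alone, with a call at an unadjusted p under 0.001 and 2-fold and Benjamini-Hochberg adjustment over all genes. Differences between genes on an array were tested by exact permutation, and correlations with 100000 permutations in scipy 1.17.1. Named genes of other lists were those called the same way at 3 or more days, at most 3 a list by size, with Actb and the 5 genes most like Mt2 by each measure; the 7 genes were all named with every probe, neighbours by position, and others after their values were seen. The members and lists were chosen with earlier results of these data known. On simulated data the fit called between 79% and 97% of the changed genes at the sizes simulated. Alternatives were other scalings, background correction, filters, probe rules, slide, scan day and replicate blocks, and leaving out each mouse.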

Additional observations from a re-analysis of the deposited data

Results flagged for a closer look

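In 6 of 70 groups of the 7 genes, the highest or lowest mouse lay far from the others for the range of its group; chance gives about 1 in 20 groups. Replicate 1 of the irradiated mice at day 9 accounted for 3 of these: it was lowest for Mt2, at 3.05 against 4.40 to 4.76 in the others, lowest for Slc30a1, at 0.999 against 1.49 to 1.76, and highest for Mt4, at 3.62 against 2.41 to 2.86. In day 30 irradiated mice, Mt1 had a low mouse at 4.07 (replicate 1; the others at 4.80 to 5.04) and Slc30a1 one at 1.31 (replicate 4; the others at 1.75 to 1.95). Mt4 had a low control at day 30, at 0.40 (the others at 1.31 to 1.86).

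The change with irradiation differed between days for Mt3 and for Mtf1 by the interaction term in limma, with adjusted p = 0.0426 and 0.00843. Mt3 went from 0.61 at day 9 to -0.39 at day 30, and Mtf1 from -0.90 at day 4 to 0.12 at day 9.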

How the results depend on the processing

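Of 84 alternatives for the change of Mt2 over the days, 78 kept its direction and its call and 6 kept the direction alone; for Mt1 72 kept both, 9 kept the direction alone, 2 made a call and 1 turned it. All named scalings are relative to shifts of the median of all genes given above.

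With 75th percentile scaling Mt1 was called at day 4 (1.53), 3 of the 7 genes were called higher at day 4 and 4 at day 9, Slc39a14 turned to 0.028 and 0.018 at days 4 and 25, Mt4 to 0.29 at day 7 and Mtf1 to 0.026 at day 25, the effect of day on the change of Mt2 passed (adjusted p = 0.0357 in limma), and r of Mt2 with Slc39a14 in irradiated mice turned to -0.0315. The share of calls that were lower went from 89.2%, 82.3%, 75.4%, 77.7% and 50.8% to 29.8%, 24.3%, 27.5%, 20.1% and 36.9% over the 5 days. With quantile normalization that effect of day also passed (limma adjusted p = 0.0199), 1 gene was called lower at day 7, Mt4 was 0.15 at day 7, Slc39a14 -0.31 at day 9, and r of Mt2 in irradiated mice was -0.0539 with Mt1 and -0.15 with Slc39a14. With the median of spots detected on all arrays Mt4 was 0.23 at day 7, and with a reference array Slc39a14 was -0.0195 at day 9 and Slc30a1 and Mtf1 were -0.24 and -0.18 at day 30.

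With spike-in scaling Mt1 was 0.22, 0.48 and 1.05 at days 7, 9 and 30 and Mt2 0.35 at day 7, none called. At days 7, 9 and 30, 0, 1 and 1 of the 7 genes were called higher, against 0%, 0.0159% and 1.89% of all genes. At days 4, 7, 9 and 25, 2, 5, 1 and 2 were called lower, against 33.5%, 75.2%, 38.7% and 41.1% of all genes. Mt3 was -0.0474, -1.59, -0.48 and -0.55 at days 4, 7, 9 and 25, Mt4 -0.0852 and -0.11 at days 4 and 9, Slc39a14 -1.04 at day 9, Mtf1 -0.97 and -0.55 at days 9 and 30 and Slc30a1 -0.60 at day 30.

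With normexp Mt1 was -0.35, 0.89 and 1.09 at days 4, 7 and 9, none called. Mt2 was 0.27, 0.72, 0.95 and 0.82 at days 4, 7, 25 and 30, none called. Over the days 0, 0, 1, 1 and 1 of the 7 genes were called higher. Among all genes 0%, 0%, 0.0371%, 0.0053% and 3.16% were called higher with normexp. Mt3 was -0.51, -0.23 and 0.23 at days 4, 7 and 30, Mt4 -0.21 at day 4, Mtf1 -0.0193 and 0.049 at days 9 and 25 and Slc30a1 0.0705 at day 25. Mt2 over Mt1 was 0.62, -0.17, 0.22, -0.57 and -0.70. The cause was not tested.

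With the mean of probes Mt2 over Mt1 was 0.93, 0.90 and 0.89 at days 7, 25 and 30 and passed, Mtf1 was -0.35 at day 30 and 1 gene was called lower at day 4. With the variation filter Mtf1 was -0.11 and -0.79 and with the authors' processed values -0.0797 and -0.73 at days 9 and 30, where the brightest probe was filtered out, and 1 gene was called lower at day 25 under each. With array weights Slc30a1 and Mtf1 were -0.11 and -0.003 at day 30, and 1 gene was called lower there.

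With slide as a block, as on the slides that held both groups, Mt1 was 1.33 and 1.23 at days 25 and 30 and not called, Mt4 was 0.18 at day 7, Slc39a14 -0.61 and Mtf1 -0.14 at day 9, Mt3 -0.0504 and 0.0746 at days 25 and 30 and Mtf1 -0.29 at day 30; the block left 1 gene called higher at days 25 and 30, and those slides alone, where Mt2 was 1.92 at day 25 and not called, left 0 and 1. Fewer arrays entered the latter. With slide as a random block Slc39a14 was -0.0391 at day 9. With scan day as a block, chosen after seeing the data, Mt4 was 0.19 at day 7 and Mtf1 -0.30 at day 30.

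Replicate numbers were not taken as pairs of mice in the main fit. The correlation of deviations over 28 same-numbered pairs ran from -0.28 to 0.32 and passed 0.1 in 8. Every pair was above 0 at day 4, at 0.07 to 0.27, and at day 30, at 0.01 to 0.32. Pairs of the other days went both ways. Whether same-numbered mice were matched was not tested. With the replicate block Mt1 was called at day 4 (1.05, limma adjusted p = 0.0041), which made 2 genes called higher there.

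Leaving out each mouse in turn gave 0.84 to 1.31 for Mt1 at day 4, 0.66 to 1.14, 1.04 to 1.54 and -0.11 to 0.24 for Mt2 over Mt1 at days 4, 9 and 25, -0.22 to 0.013 for Mt4 at day 7 and 0.81 to 1.103 at day 9, -0.0267 to 0.21 and -0.0959 to 0.16 for Mtf1 at days 9 and 30, -0.13 to 0.12 for Slc30a1 at day 30, and -1.02 to -0.74 and -0.12 to 0.21 for Slc39a14 at days 7 and 9. Genes called higher at day 4 were 1 or 2, and called lower at day 7 0 or 1. The change of Mt2 kept its call on every day without any 1 mouse. Slc39a14 is limited by its signal, near background on most arrays.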
